A study of Rattus norvegicus with 6 samples.

Results

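The VEGF axis was read in rat hippocampus by 6 probe sets: 4 for Vegfa, 1 for Kdr and 1 for Flt1. They are all the probe sets, of 8799 on the array, whose platform annotation names exactly 1 gene and that gene is Vegfa, Kdr or Flt1. All 6 passed the filter that left out the dimmest 25% of probe sets. The genes were chosen on the line difference itself: 1 Vegfa probe set was already known to read higher in SHA rats in all pools while the other 3 differed little. Differences between the lines on these 6 are therefore given as a description, with no test.

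The samples were whole hippocampi of Syracuse High Avoidance (SHA) rats, 3 pools of 3 rats, and of Syracuse Low Avoidance (SLA) rats, also 3 pools of 3 rats. The lines differ in how readily the animals learn to avoid a signalled shock by crossing a shuttle box. Rats of both lines had been through this avoidance test 2 weeks before the tissue was taken, and no untested rats were measured here. Effects of the line and of its experience in the test cannot be told apart. The labels used here give no age, sex or breeding history, and each pool blends 3 animals, so the spread between single rats is not seen. Nothing in the labels says that pools came from separate batches of rats, so p-values measure the spread between these 6 pools, each on 1 array.

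Vegfa encodes vascular endothelial growth factor A, a secreted protein that makes blood vessels grow and become permeable. Its transcription is raised by hypoxia through the factor HIF-1, and its mRNA is spliced into several isoforms. Kdr, also called VEGF receptor-2, is the tyrosine kinase that carries most of the growth signal in endothelial cells. Flt1, VEGF receptor-1, binds the ligand tightly, signals weakly and also exists as a soluble form that traps it. In the adult hippocampus VEGF-A is made by astrocytes and neurons and is known for its effects on vessels and on neurogenesis in the dentate gyrus.

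Values are linear intensities on the authors' common array scale. They differ between probe sets for reasons of probe design, so each probe set is compared only with itself across pools. Differences are log2 SHA minus SLA ± the standard error from limma, and means are given ± SD with n = 3 pools per line. None of the 6 VEGF probe sets lay at the floor of 8.9 in any pool.

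The Vegfa probe sets did not agree on the line difference. In 1 of the 4 all SHA pools lay above all SLA pools, and the other 3 gave overlapping pools and small differences of either sign. Across all 6555 probe sets tested, 2.01% had all SHA pools above all SLA pools, 3.65% had them all below, and 5.66% were of either kind. These shares are a background only, since this probe set was chosen with its values known.

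M32167_at read 229.4, 174.1 and 194.8 in SHA pools 1, 2 and 3, against 107.6, 48.3 and 51.1 in SLA pools 1, 2 and 3. The lowest SHA pool lay above the highest SLA pool, and SLA pool 1 stood above the other 2 SLA pools. Means were 199 ± 27.9 in SHA and 69.0 ± 33.5 in SLA, a difference of 1.62 ± 0.43, or 3.08-fold. Between pools that share a number the difference was 1.09, 1.85 and 1.93 for numbers 1, 2 and 3. The other Vegfa probe sets did not show this difference, and whether it reflects the amount of Vegfa RNA was not tested. In whole tissue, more RNA per cell and more cells that make it cannot be told apart either.

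M32167_g_at carries the same sequence name as M32167_at, so both were designed to 1 deposited Vegfa sequence. It read 42.6, 74.8 and 92 in SHA pools 1, 2 and 3, against 44.7, 72.1 and 63.8 in SLA pools 1, 2 and 3. The lines overlapped, and pool 1 was the lowest of its line in both. Means were 69.8 ± 25.1 in SHA and 60.2 ± 14.1 in SLA, a difference of 0.17 ± 0.51.

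The probe set rc_AA850734_at, named after an expressed sequence tag, read 60.8, 166.4 and 203.2 in SHA pools 1, 2 and 3. In SLA pools 1, 2 and 3 it read 54.6, 173.8 and 139.2. Again the lines overlapped and pool 1 was the lowest of each line. The means of 143 ± 73.9 in SHA and 123 ± 61.3 in SLA gave a difference of 0.21 ± 0.59.

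L20913_s_at was the one Vegfa probe set with a negative difference. Its values were 18, 81.1 and 32.7 in SHA pools 1, 2 and 3, against 32, 61.4 and 34.5 in SLA pools 1, 2 and 3. Pool 2 was the highest of each line and pool 1 the lowest. Means were 43.9 ± 33.0 in SHA and 42.6 ± 16.3 in SLA. The log2 difference of -0.17 ± 0.71 has the opposite sign to the difference of these linear means, and it was 0.0045 with the floor at the 25th percentile.

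**Figure D1:**
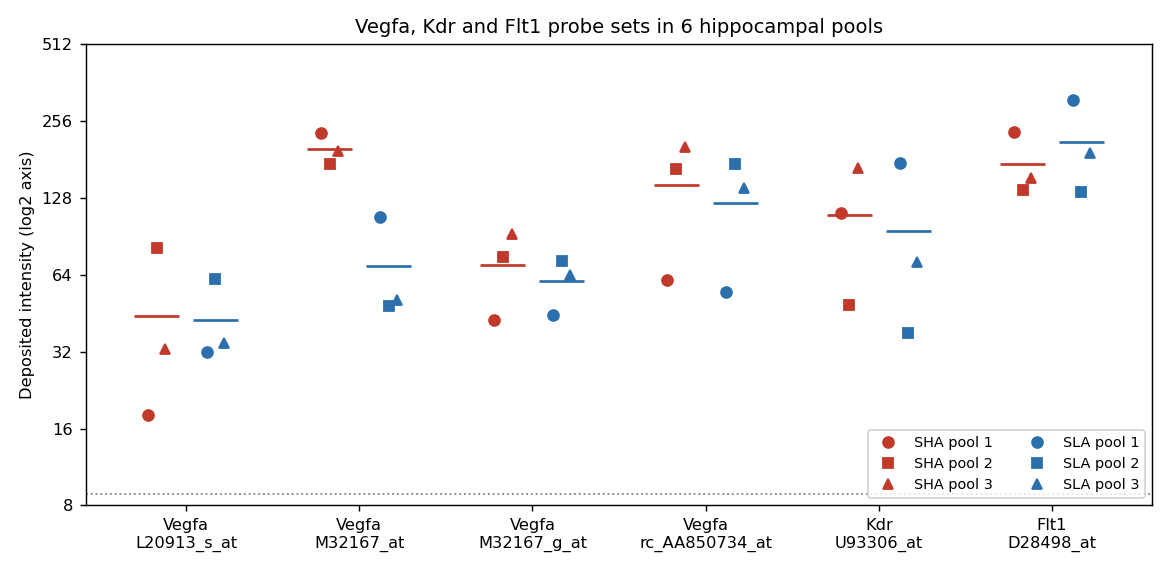
Deposited intensity (log2 axis) of the 4 Vegfa probe sets and of the Kdr and Flt1 probe sets in each pool, with SHA in red on the left and SLA in blue on the right of each pair. Symbols mark the pool number, horizontal bars the mean of 3 pools and the dotted line the floor of 8.9; M32167_at alone has its SHA pools, 174.1 to 229.4, wholly above its SLA pools, 48.3 to 107.6.

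Neither receptor separated the lines. The Kdr probe set U93306_at read 112.1, 48.7 and 168.1 in SHA pools 1, 2 and 3, against 175, 38 and 71.9 in SLA pools 1, 2 and 3. The lines overlapped over nearly their whole range, and pool 2 was the lowest of each line. Means were 110 ± 59.7 in SHA and 95.0 ± 71.4 in SLA, a difference of 0.31 ± 0.66. Between pools of 1 number the Kdr difference was -0.64, 0.36 and 1.23 for numbers 1, 2 and 3, so its sign depended on the pair.

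The Flt1 probe set D28498_at read 232.5, 136.9 and 152.8 in SHA pools 1, 2 and 3, against 310.3, 134.6 and 192.2 in SLA pools 1, 2 and 3. Here too the lines overlapped, with pool 1 the highest and pool 2 the lowest of each line. Means were 174 ± 51.2 in SHA and 212 ± 89.6 in SLA, a difference of -0.24 ± 0.39. Within numbers 1, 2 and 3 the Flt1 difference was -0.42, 0.02 and -0.33.

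**Figure D2:**
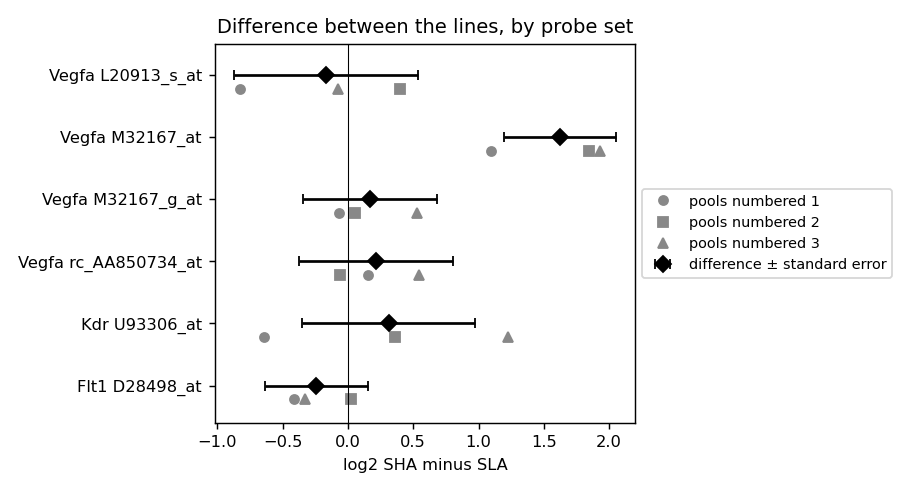
Difference between the lines (log2 SHA minus SLA) for the 6 probe sets. Black diamonds with bars are the difference of 3 pools against 3 ± its standard error, and grey symbols are the differences between pools of 1 number; M32167_at lies at 1.62 with all 3 grey symbols above 1, while the other 5 lie between -0.24 and 0.31.

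Apart from the line, the members varied with the number of the pool, as did probe sets across the array. The mean of the SHA and the SLA pool of 1 number was calculated for each number, relative to the probe set's own mean. The spread of these means, highest minus lowest, had a median of 0.79 over all probe sets tested. It was 0.78 for M32167_at, 0.81 for M32167_g_at, 0.98 for Flt1, 1.56 each for L20913_s_at and rc_AA850734_at, and 1.70 for Kdr. For rc_AA850734_at the means were -1.04, 0.53 and 0.51 for numbers 1, 2 and 3, and for M32167_g_at -0.52, 0.23 and 0.29. L20913_s_at was lowest in number 1 as well, with -0.68, 0.88 and -0.20.

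M32167_at ran the other way, with 0.48, -0.30 and -0.18 for numbers 1, 2 and 3. The receptors also had their highest mean in number 1 and their lowest in number 2, with 0.68, -1.02 and 0.33 for Kdr and 0.54, -0.44 and -0.10 for Flt1. Of all probe sets tested, 40.4% were lowest and 34.4% highest in number 1, so neither position is unusual. The line difference was larger than the spread of the number means for 1 of the 6 members, M32167_at, and for 11.4% of all probe sets tested. M32167_at was chosen for its line difference, so its place here is a description only. The line difference is between means of 3 pools, while the spread is a range over means of 1 SHA and 1 SLA pool, so the comparison is uneven.

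The control probe sets also varied with the pool number. The geometric mean of 9 added bacterial and phage controls was 5458, 1121 and 2279 in SHA pools 1, 2 and 3, against 12282, 640 and 1564 in SLA pools 1, 2 and 3. Antisense probe sets of Gapdh and beta-actin read 1352, 30.1 and 365 in SHA pools 1, 2 and 3, and 1432, 21.3 and 219 in SLA pools 1, 2 and 3. Their part in the values of the VEGF probe sets was not tested. Without both pools numbered 1, a setting chosen after seeing the data, the M32167_at difference was 1.89.

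Whether the Vegfa probe sets follow each other across pools was asked on deviations from the line means, which leave out the line difference that picked the gene. Each of the 6 pairs was compared over the 6 pools with a two-sided exact permutation test of pools within lines. This test has 36 arrangements and can give no p under 0.0278. It moves SHA and SLA pools independently, although same-numbered pools deviated together for numbers 1 and 2. Keeping the numbers together, an alternative chosen after seeing the data, leaves 6 arrangements, gives no p under 0.17, and gave that smallest p for M32167_g_at and rc_AA850734_at and exact permutation p between 0.33 and 0.67 for the Pearson r of the other pairs. M32167_g_at and rc_AA850734_at followed each other most closely, with a Pearson r of 0.98 (exact permutation p = 0.0278, adjusted p = 0.17 over the 6 pairs). Their Spearman rho was 1.0 (exact permutation p = 0.0278, adjusted p = 0.17), and r was 0.89 without SHA pool 1 and SLA pool 1.

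L20913_s_at had an r of 0.65 with M32167_g_at and of 0.67 with rc_AA850734_at (exact permutation p = 0.31 and p = 0.22, adjusted p = 0.31 and 0.27). Its rho was 0.77 with each (exact permutation p = 0.19, adjusted p = 0.25). Without SHA pools 1 and 2 these r were 0.48 and 0.57.

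The deviations of M32167_at ran against those of the other 3. Its r was -0.69 with M32167_g_at, -0.83 with rc_AA850734_at and -0.52 with L20913_s_at (exact permutation p = 0.083, 0.083 and 0.14, adjusted p = 0.17, 0.17 and 0.21). The rho values were -0.54, -0.54 and -0.66 (exact permutation p = 0.25, 0.25 and 0.11, adjusted p = 0.25 each). Without SLA pools 2 and 3 the r values with M32167_g_at and rc_AA850734_at were -0.65 and -0.79, and without SHA pools 1 and 2 that with L20913_s_at was -0.62. SLA pools 2 and 3 were left out for their distance from the median of M32167_at before line means were removed. SLA pool 1, which stood above them, stayed in, so how far these r rest on it was not tested. No pair passed an adjusted p of 0.05.

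**Figure D3:**
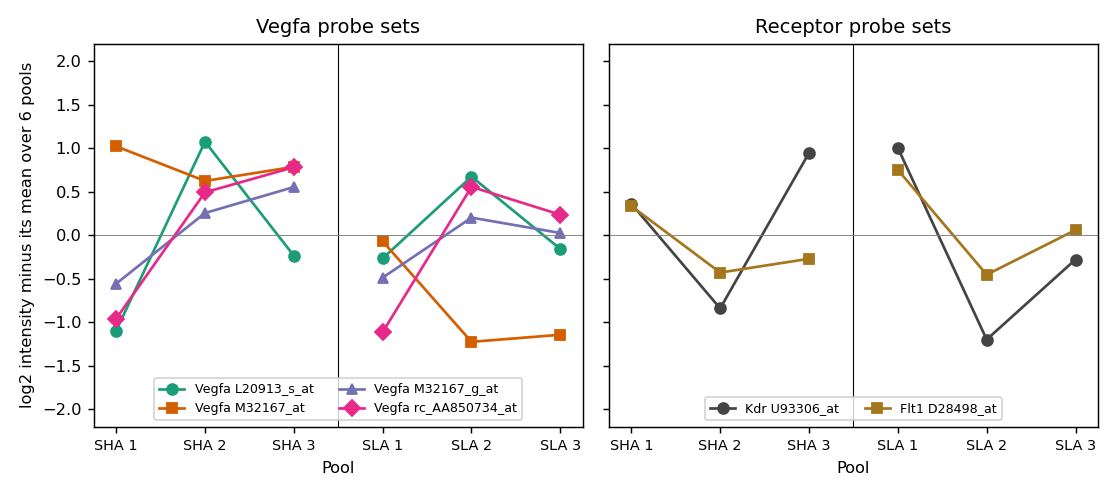
Log2 intensity minus its mean over the 6 pools, for the Vegfa probe sets (left) and the receptor probe sets (right), with SHA pools left of SLA pools. Lines only join the points of 1 probe set within a line of rats; L20913_s_at, M32167_g_at and rc_AA850734_at are all lowest in pool 1 of each line, where M32167_at is highest.

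The disagreement within Vegfa was wide for this array. Of 78 genes with 4 or more probe sets tested, the median gene had differences that spanned 0.71 on the log2 scale, and Vegfa spanned 1.79. Only Cacna1a, a calcium channel subunit, at 1.94, and Tmpo, a nuclear envelope protein, at 1.96, spanned more. Both were named after their values were seen. Vegfa was itself chosen with this disagreement known, so its place among the 78 genes is a description without a test.

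The same holds for the pair designed to 1 sequence. The array has 654 pairs of an _at and a _g_at probe set of 1 sequence name in which both were tested, and the median gap between their differences was 0.25. The gap between M32167_at and M32167_g_at was 1.45, and 9 of the 654 pairs, this one included, had a gap at least as large. The root mean square distance between their mean-centred profiles was 1.02, against a median of 0.51, and 87 pairs were at least as far apart. These counts describe a probe set chosen for its difference and carry no test.

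**Figure D4:**
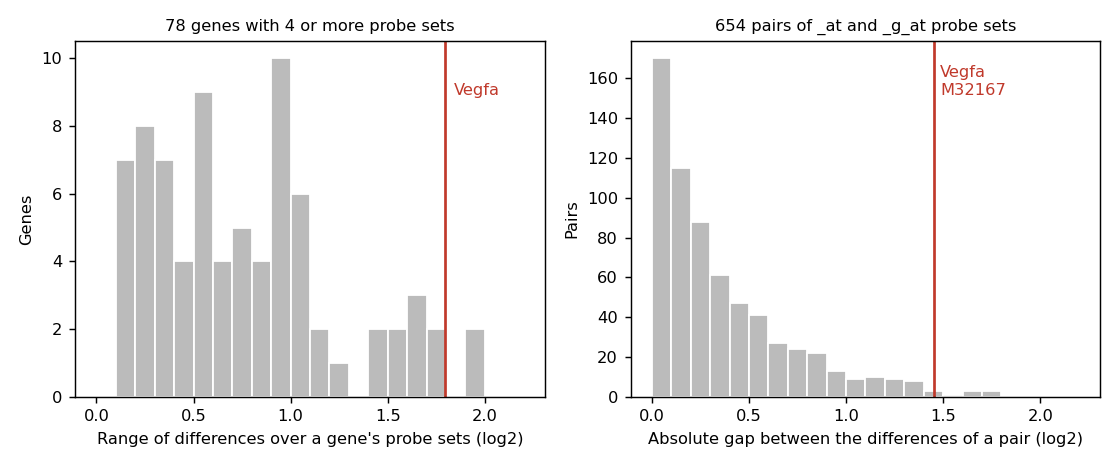
Left, the number of genes by the range of the log2 SHA minus SLA differences over their probe sets, for 78 genes with 4 or more probe sets; right, the number of pairs by the absolute gap between the differences of an _at and a _g_at probe set of 1 sequence, for 654 pairs. The red lines mark Vegfa at 1.79 and its M32167 pair at 1.45, both in the right tail.

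The profiles most like that of M32167_at were found by the root mean square distance of mean-centred log2 values over the 6 pools, among 5376 probe sets of other single genes. The median distance was 1.02. Syngr1, a synaptic vesicle membrane protein, was nearest on U39549_g_at at 0.27, followed by Csnk1g1, a casein kinase, on U22296_at at 0.34. Psmb4, a proteasome subunit, on rc_AI172162_at (0.35), Tmod2, an actin-capping protein of neurons, on U59240_at (0.38) and Ncr3, a receptor of natural killer cells, on rc_AA894045_at (0.41) came next. The same distance was 0.87 for Kdr and 0.95 for Flt1, and 1.02, 1.30 and 1.31 for the Vegfa probe sets M32167_g_at, rc_AA850734_at and L20913_s_at. For these 3, between 2685 and 4566 probe sets of other genes lay closer to M32167_at. The distance includes the line difference for which M32167_at was chosen, so these ranks are a description only. The _at probe set of the Syngr1 sequence had a line difference 1.72 away from that of U39549_g_at. For the M32167 pair this gap was 1.45.

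Among the other ligands and co-receptors, 5 genes had a probe set and 4 passed the filter. None passed limma's test (adjusted p = 1.00 each). Of all 6555 probe sets, 0% passed an adjusted p of 0.05, while 0.366% were higher and 1.13% lower in SHA at an unadjusted p under 0.05.

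Pgf, placental growth factor, which binds Flt1 but not Kdr, read 80.2, 46.7 and 80.6 in SHA pools 1, 2 and 3, against 145.3, 7.1 and 31.3 in SLA pools 1, 2 and 3. SLA held both the highest and the lowest pool, and SLA pool 2 lay under the floor. Its difference was 0.97 ± 0.92, and it was -0.0076 without SLA pool 2.

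Vegfb, another ligand of Flt1, read 29.7, 217.8 and 124 in SHA pools 1, 2 and 3, against 14.5, 240.8 and 129.8 in SLA pools 1, 2 and 3. Like most Vegfa probe sets it was lowest in pool 1 of each line. Its log2 difference was 0.27 ± 1.05, although its linear mean was 124 ± 94.1 in SHA and 128 ± 113 in SLA.

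Vegfd, a ligand better known from lymphatic vessels, differed by 0.21 ± 0.77, with 65.0 ± 43.2 in SHA and 44.5 ± 14.2 in SLA. Nrp1, the co-receptor that joins VEGF-A to Kdr and also binds semaphorins, had the smallest standard error of the family. It read 303, 280.3 and 229.6 in SHA pools 1, 2 and 3, against 247.4, 243.8 and 279.3 in SLA pools 1, 2 and 3, a difference of 0.07 ± 0.26. Nrp2 read 14.9 ± 3.71 in SHA and 10.8 ± 4.20 in SLA and was among the dimmest 25%, so it was not tested. Vegfc and Flt4 were not analysed here.

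HIF regulators, the genes that set the activity of the hypoxia response, had 8 members tested, 1 higher and 7 lower in SHA, with 0 past an adjusted p of 0.05 or an unadjusted p under 0.05. Their median difference was -0.18, against -0.03 over all 3812 genes tested, of which 45.8% were higher. Hif1a, the oxygen-regulated subunit of HIF-1, read 107 ± 45.7 in SHA and 136 ± 51.1 in SLA (-0.35 ± 0.46). The chaperone Hsp90ab1, which stabilises it, differed by -0.20 ± 0.28, and Rack1, which promotes its breakdown, by 0.06 ± 0.26. The remaining regulators Arnt, Egln3, Vhl, Cited2 and Arnt2 differed by -0.25, -0.21, -0.15, -0.12 and -0.06. The list mixes genes that raise HIF activity with genes that lower it, so its counts and median give no direction for that activity. With probe sets of a gene averaged in place of the brightest, 3 of the 8 were higher and 5 lower.

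Hypoxia target genes, induced by HIF as Vegfa is, had 31 members tested, 11 higher and 20 lower, with a median of -0.09 and 0 past an adjusted p of 0.05. At an unadjusted p under 0.05, 1 was lower and 0 higher. That one was Hmox1, the inducible haem oxygenase, with 56.4 ± 33.8 in SHA and 135 ± 19.9 in SLA (-1.41 ± 0.50, adjusted p = 1.00). Pfkfb3, a regulator of glycolysis, differed by -0.69 ± 0.51. On the other side, Edn1, the vasoconstrictor endothelin-1, read 74.6 ± 24.7 in SHA and 32.4 ± 22.1 in SLA (1.46 ± 0.75), and Plod2, a collagen-modifying enzyme, differed by 0.99 ± 0.66. The Edn1 reading of 8.1 in SLA pool 1 lay under the floor, and without 1 pool its difference was as low as 0.69. With probe sets averaged 17 of the 31 were higher, and likewise without both pools numbered 1.

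Genes of the signalling path below Kdr had 38 members tested, 19 higher and 19 lower, with a median of -0.0044 and 0 past an adjusted p of 0.05. At an unadjusted p under 0.05, 1 was higher and 0 lower. That gene was Cdc42, a GTPase of the actin cytoskeleton, with 1339 ± 112 in SHA and 909 ± 251 in SLA (0.59 ± 0.25, adjusted p = 1.00). These values are of rc_AA925473_g_at, and the _at probe set of the same sequence name had a difference 0.54 away from it. Ptprj, a phosphatase that acts on Kdr, differed by 1.56 ± 0.75. Pik3r1, the regulatory subunit of PI3-kinase, differed by -1.44 ± 0.65 and the phosphatase Ptpn6 by -1.62 ± 0.82. With probe sets averaged 28 were higher and 10 lower.

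Other angiogenic factors had 32 members tested, 9 higher and 23 lower, with a median of -0.20 and 0 past an adjusted p of 0.05. The unadjusted p was under 0.05 for 1 gene, Tgfbr1, a TGF-beta receptor, at 13.8 ± 0.26 in SHA and 60.8 ± 13.2 in SLA (-2.12 ± 0.62, adjusted p = 1.00). Its SHA readings lay not far above the floor of 8.9. Sdc4, a heparan sulphate proteoglycan, differed by -0.41 ± 0.21 on S61868_g_at, and the _at probe set of that sequence name had a difference 0.43 away. Itgb3, the beta-3 integrin chain, differed by 1.42 ± 0.76 and Pdgfb, a factor that recruits pericytes, by 0.71 ± 0.61.

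Since Kdr and Flt1 are transcripts of endothelial cells, vessel markers were set beside them. Of 21 endothelial markers tested, 11 were higher and 10 lower in SHA, with a median of 0.04 and 0 past an adjusted or an unadjusted p of 0.05. Their summed intensity lay between 3908 and 4472 in SHA pools and between 3666 and 4564 in SLA pools. Pecam1, an adhesion molecule of endothelium, read 80.5, 98.6 and 146.2 in SHA pools 1, 2 and 3, against 144.4, 82.2 and 123.5 in SLA pools 1, 2 and 3 (-0.11 ± 0.42, and 0.25 without both pools numbered 1). The von Willebrand factor gene Vwf read 26.7 ± 4.89 in SHA and 35.4 ± 11.2 in SLA on U50044cds_g_at, and its other probe set was too dim to be tested. The other defining markers Cdh5, Cldn5, Tek and Tie1 were not analysed here. Besides Edn1, the endothelial genes named by the rule of smallest p in each direction were Slc16a1, a monocarboxylate transporter (1.00 ± 0.53), on the higher side, and on the lower side Icam1, a leukocyte adhesion molecule (-0.38 ± 0.36), and Klf4, a transcription factor (-0.54 ± 0.53). Icam1 was read on D00913_g_at, and the _at probe set of that sequence name had a difference 0.87 away.

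Markers of pericytes and smooth muscle had 10 members tested, 3 higher and 7 lower, with a median of -0.43 and 0 past an adjusted or an unadjusted p of 0.05. Smooth muscle actin Acta2 differed by 0.69 ± 0.55 and the potassium channel Kcnj8 by 0.50 ± 0.45. Calponin, Cnn1, differed by -0.93 ± 0.80 and the PDGF receptor Pdgfrb by -0.57 ± 0.53. Summed over the 10 mural genes, intensity was 917 to 1175 in SHA pools and 1194 to 1456 in SLA pools. The sum of a list weighs its brightest genes most. Taken singly, 0 of these 10 genes had non-overlapping pools, against 5.66% of all probe sets tested. Without both pools numbered 1 the median was -0.09.

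Other sources of VEGF were also checked. Astrocyte markers had 14 tested, 6 higher and 8 lower (median -0.01), with sums of 48266 to 78269 in SHA pools and 42790 to 88461 in SLA pools. Hippocampal neuron markers had 24 tested, 20 higher and 4 lower (median 0.19), with sums of 31868 to 34641 in SHA pools and 28162 to 32226 in SLA pools. Without SLA pool 1 these neuron markers were split 16 to 8 with a median of 0.06, without SHA pool 3 the median was 0.09, and without SHA pool 1 it was 0.33. The tissue's defining neuronal transcripts Camk2a, Nrgn, Snap25, Syn1 and Gria1 were measured in all 6 pools, the lowest reading being 16.7. Microglia markers had 11 tested, 0 higher and 11 lower (median -0.41), with sums of 2828 to 3778 in SHA pools and 4601 to 5158 in SLA pools, and without SLA pool 1 they were split 2 to 9 with a median of -0.65. The part of neuron and microglia markers in the M32167_at difference was not tested.

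Choroid plexus markers had 7 tested, 1 higher and 6 lower, with sums of 1182 to 1400 in SHA pools and 1299 to 1608 in SLA pools. Ttr, the transthyretin of that tissue, read 114.1, 137.1 and 103.5 in SHA pools 1, 2 and 3, against 172.9, 70.8 and 85.1 in SLA pools 1, 2 and 3 on rc_AA945169_at (0.21 ± 0.44). Its second probe set, rc_AA945169_g_at, read 61.9, 130.6 and 41.2 in SHA pools 1, 2 and 3, against 94.2, 37.2 and 8 in SLA pools 1, 2 and 3. That gave a larger difference of 1.14 ± 0.88, with SLA pool 3 under the floor and the lines overlapping, and 0.23 without that pool. Kl differed by -0.05 ± 0.53, and Folr1 was not analysed here. Blood cell markers had 5 tested, 1 higher and 4 lower, with sums of 2373 to 5024 in SHA pools and 2419 to 4662 in SLA pools. Haemoglobin beta, Hbb, differed by -0.03 ± 0.42 and the erythroid enzyme Alas2 by -0.11 ± 0.43, while Hba1 was not analysed here. Oligodendrocyte markers had 7 tested, 2 higher and 5 lower (median -0.19, and -0.0072 without SLA pool 1). Of these 6 lists no gene reached an adjusted p of 0.05 in limma. At an unadjusted p under 0.05, Vim, Cd74 and C1qb were lower and 0 were higher.

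**Figure D5:**
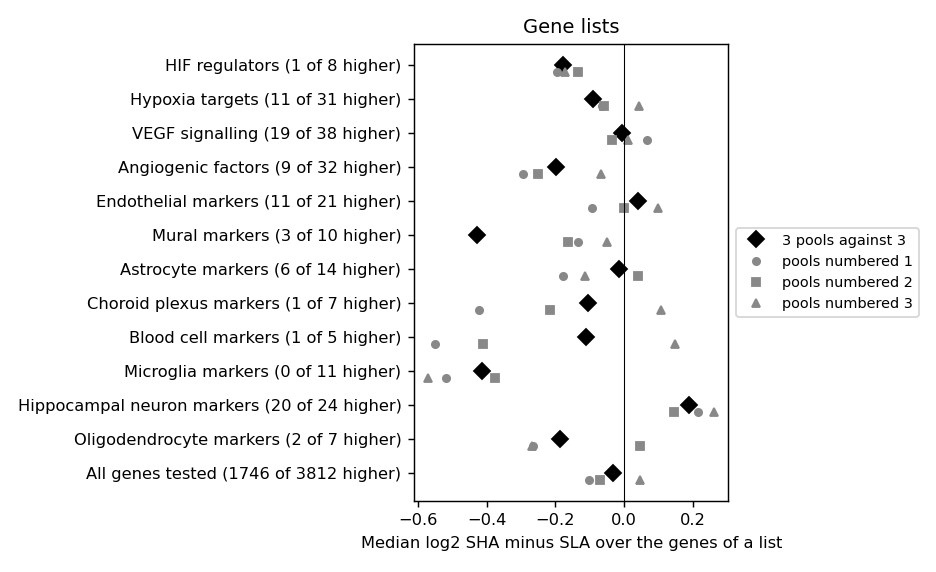
Median log2 SHA minus SLA over the genes of each list, with the number of genes higher in SHA. Diamonds are 3 pools against 3 and grey symbols are pools of 1 number. The hypoxia target, signalling and endothelial lists lie between -0.09 and 0.04. The mural list lies at -0.43, microglia at -0.41, angiogenic factors at -0.20, oligodendrocytes at -0.19, HIF regulators at -0.18 and neurons at 0.19.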

How the data were processed

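Each probe set has a single linear intensity in every pool, used here as the authors deposited it. Per the values, the 2%-trimmed mean was 250 on each of the 6 arrays, so a scaling preceded deposit; the software is not stated in the labels. Intensities under the 10th percentile of the non-control values (8.9) were set to it and log2 was taken. Leaving out the dimmest 25% by mean log2 value kept 6555 probe sets. Names follow the platform annotation, updated by gene number to assembly GRCr8 (6985 of 7006 probe sets with 1 symbol matched). Precision is limited by how few arrays there are.

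The test was limma 3.58.1 in R 4.3.3 (lmFit, eBayes with an intensity trend, two-sided, Benjamini-Hochberg over all probe sets, threshold 0.05), tried first on simulated data. Lists took the brightest probe set of each gene. Members and lists were chosen with earlier results of these data known. By rule, the text names the other VEGF family genes, up to 2 higher and 2 lower genes of smallest p per pathway list, defining markers and the 5 nearest profiles. The remaining HIF regulators are named outside this rule. Same-numbered pools deviated together for numbers 1 and 2 (correlations 0.44 and 0.68), which was read as pairing, from the data alone. For number 3 the correlation was 0.13, under the 0.16 of SHA pool 3 with SLA pool 1. The other pools of unlike number had correlations of -0.56 to -0.012. Alternatives were other floors, filters and scalings, no trend, the pool number as a block, array weights, averaged probe sets and fewer pools.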

Additional observations from a re-analysis of the deposited data

How the results depend on the processing

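The differences of the 6 VEGF probe sets moved by less than 1 SD of the pools under each alternative run, although 5 of them lie near 0 and changed sign in some. Leaving out 1 pool gave 1.42 to 2.00 for M32167_at, -0.06 to 0.49 for M32167_g_at, -0.29 to 0.74 for rc_AA850734_at, -0.75 to 0.34 for L20913_s_at, -0.21 to 0.89 for Kdr and -0.53 to 0.08 for Flt1. M32167_at was 1.40 on log2(value + 16) and 1.91 with array weights. With the pool number as a block the M32167_at difference stayed 1.62, its standard error was 0.33, and the block changed no call. For M32167_g_at and rc_AA850734_at r was 0.97 with line means kept. In that setting the negative r of M32167_at came nearer to none, at -0.10 with M32167_g_at, -0.23 with rc_AA850734_at and -0.33 with L20913_s_at. Keeping line means brings back the line differences on which the genes were chosen, so the pass of M32167_g_at and rc_AA850734_at there is no support. In the other settings no pair passed. No probe set passed in any setting run; 98 had an unadjusted p under 0.05, against 345 with the replicate block, 354 with array weights, 203 with no filter, 63 with the dimmest 50% left out and 57 to 152 without 1 pool.

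Of the genes that are not members, those below changed sign. With array weights Vegfb was -0.43, Vegfd -0.034, Nrp1 -0.033, Alas2 0.28 and Hbb 0.38. Without both pools numbered 1 Vegfb was -0.11, Vegfd -0.42, Nrp1 -0.041, Rack1 -0.033, Alas2 0.11 and Pecam1 0.25. Vegfb was -0.0026 with the floor at the 25th percentile. Kl was 0.063 after quantile normalization and 0.0043 after median centring, where Hbb was 0.021. Without 1 pool they ranged over -0.93 to 1.10 for Vegfb, -0.24 to 1.06 for Vegfd, -0.015 to 0.19 for Nrp1, -0.15 to 0.19 for Rack1, -0.0076 to 2.01 for Pgf, -0.35 to 0.080 for Pecam1, -0.45 to 0.38 for Kl, -0.42 to 0.16 for Alas2, -0.49 to 0.25 for Hbb and -0.047 to 0.60 for Ttr on rc_AA945169_at. Without 1 pool the list medians were -0.22 to -0.09 for HIF regulators, -0.10 to 0.02 for hypoxia targets, -0.09 to 0.08 for signalling genes, -0.29 to -0.08 for angiogenic factors, -0.06 to 0.10 for endothelial, -0.50 to -0.11 for mural, -0.18 to 0.07 for astrocyte, -0.38 to -0.06 for choroid plexus and -0.42 to -0.03 for blood cell markers. The cause was not tested. Detection calls were not used, so how much background low readings hold is unknown.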
